A study of Arabidopsis thaliana with 10 samples.

Results

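The comparison described here sets leaves of NahG plants against wild type leaves of Arabidopsis thaliana at developmental stage 6.0. Its members are the 2 arrays whose source name is NahG and the 2 wild type arrays labelled stage 6.0, which makes 4 of the 10 arrays of the series. NahG plants are labelled as transgenic in a Columbia background, with no stock code. Wild type array 1 came from stock N933 and wild type array 2 from stock N1644, both with the source name Col-0, although the title of array 2 follows the pattern of the stage 3.9 array labelled Col-5. All plants were untreated, grown on compost in a growth room at a temperature given as 18 with a day length of 12 h, and fully expanded leaves were taken for total RNA. The other arrays, 2 a group, hold wild type at stage 3.9, one array each of Col-0 and Col-5, and ein2 and coi1 plants at stage 6.0. The labels give ein2 and coi1 as transgenic in Columbia under 1 shared stock code, and these arrays serve below only to place NahG. The promoter and line of the NahG transgene, and whether 2 arrays of a group came from separate plants, are not given in the sources used here, so the p-values measure the spread between these arrays, which may be technical.

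NahG encodes a bacterial salicylate hydroxylase that turns salicylic acid into catechol, so plants that express it accumulate little salicylic acid. Salicylic acid is the plant hormone that switches on defence genes against biotrophic pathogens, and it builds up in ageing leaves. It also acts against the jasmonate pathway, which drives defensins, thionins and other proteins against insects and necrotrophic fungi. The series title places the plants in a study of how such stress pathways affect gene expression in senescing leaves.

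No probe set of the array is named for the transgene, so its expression was not checked. Of 8 mesophyll markers meant as a check of leaf identity, 4 have a named probe set, all photosynthesis genes. Their summed signal was 3558 and 4384 in wild type and 6424 and 6102 in NahG, against 20110 and 13470 in wild type at stage 3.9. For floral organs, pollen, seed, root, dividing cells and vessels, 0 markers could be read by name, and guard cells and trichomes had 1 marker each, both below the signal filter. The mesophyll sum differed between stages, and it holds PSAN, LHCB4.2 and PSAE-1, which are reported below as higher in NahG. It therefore cannot check tissue identity. The ratio of 3' to 5' control signals, a measure of RNA and labelling quality, was higher on both NahG arrays than on both wild type arrays for all 3 controls. For ubiquitin it was 1.66 and 1.60 in NahG against 1.34 and 1.305 in wild type, for actin 2.60 and 2.11 against 2.08 and 1.77, and for GAPDH 1.28 and 1.21 against 1.17 and 1.02. The part of this ratio, and of the wild type stocks, in the results below was not tested. Signals are MAS5 intensities on a linear scale with a trimmed mean of 100 per array. In such bulk leaf RNA, fewer cells of a type and less RNA per cell cannot be told apart.

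NahG leaves differed widely from wild type leaves of the same stage. Of 12184 probe sets tested, 440 were higher in NahG, which is 3.61% of those tested, and 670 were lower, which is 5.5%, at an adjusted p under 0.05 (limma on log2(signal + 16), Benjamini-Hochberg). Among the 6411 genes that a probe set names alone, 213 rose (3.32%) and 322 fell (5.02%). Falls and rises that passed had similar median sizes, -1.123 and 1.104 on the log2 scale, while the median of all probe sets was 0.01. More of the falls were extreme, with 44 of the 670 probe sets lower by more than 3 against 18 of the 440 higher by as much. These counts depend on the constant added to the signal, and were 75 lower and 39 higher with 1 added and 16 lower and 6 higher with 64 added. In all 1110 that passed, the NahG and wild type arrays did not overlap, as also held for 26.6% (higher) and 26.4% (lower) of all probe sets tested. Of the 670 that fell, 36 had signals of 50 or more on both wild type arrays and under 16 on both NahG arrays, and 14 of the 440 that rose showed the opposite. Leaving out 1 array gave 748 calls without wild type array 1, 615 without wild type array 2, 455 without NahG array 1 and 698 without NahG array 2, against 1110 with all. Where a gene described below lost its call in such a fit, with another constant, with no filter or with only the compared groups fitted, its adjusted p there or the loss itself is given beside it. Of 91 named genes that passed, 43 had a fold difference that moved by more than 1.5 times when 1 or 64 was added in place of 16, so the sizes given for low signals hold for this constant only. Of the probe sets that rose, 64.5% were brighter on NahG array 1 than on array 2, against 53.7% of all tested.

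**Figure D1:**
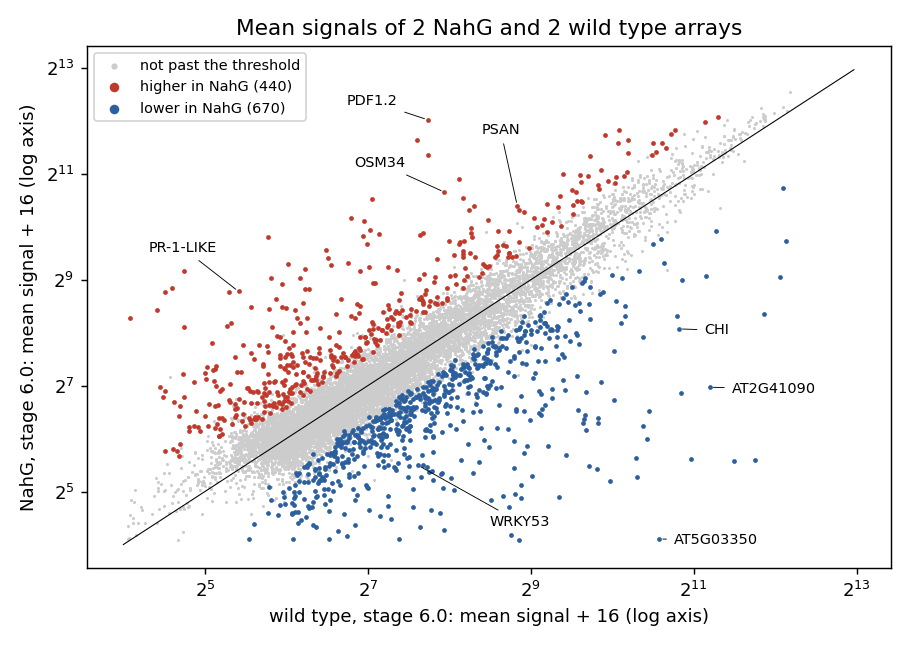
Mean signal + 16 of each tested probe set over 2 wild type arrays (x axis, log) and 2 NahG arrays (y axis, log), both at stage 6.0, with the line of equal signal. The 440 probe sets that were higher and the 670 that were lower in NahG are coloured, and AT5G03350 lies at the bottom right, high in wild type and near the floor in NahG.

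The strongest fall was that of AT5G03350, whether 1, 16 or 64 was added to the signal. Its signal was 1638 and 1382 on the wild type arrays and 1.51 and 0.906 on the NahG arrays. Both NahG values lie at the floor of the array, and the log2 difference was -6.47 ± 0.31 (SE; limma adjusted p = 8.41e-07). The size rests on the added constant, and it was -9.43 with 1 added and -4.59 with 64 added. The same gene gave 1747 and 1853 in ein2, 673 and 1178 in coi1 and 2460 and 1325 in wild type at stage 3.9, so NahG was the only one of the 5 groups in which it was at the floor. AT5G55450 showed the same order, with 495 and 338 in wild type and 2.42 and 1.71 in NahG (-4.56 ± 0.36; adjusted p = 2.64e-05, limma). With 1 and 64 added this difference was -7.08 and -2.84. AT1G19960 had 616 and 657 in wild type and 9.17 and 18.6 in NahG (-4.47 ± 0.26; adjusted p = 3.96e-06, limma), or -5.50 and -3.17 with 1 and 64 added. Neither gene came near the NahG level in the mutants, where AT5G55450 had 363 and 422 (ein2) and 216 and 391 (coi1), and AT1G19960 had 759.7 and 909.8 (ein2) and 730.5 and 906 (coi1).

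AT2G41090 had signals of 2317 and 2345 in wild type and 59.2 and 159 in NahG. Its NahG arrays differed more than its wild type arrays, and the log2 difference of -4.35 ± 0.32 became -3.74 without NahG array 1 and -4.96 without NahG array 2, past the threshold in both cases. AT4G29480 fell from 426 and 351 to 13 and 15.7 (-3.73 ± 0.18; adjusted p = 8.5e-07, limma). Its 2 arrays lay close together in each group, and both NahG arrays stood far below the rest, with differences of -4.67 and -2.53 when 1 and 64 were added. AT2G44240 had 363 and 93.4 on the wild type arrays, which differed from each other, and 3.63 and 2.92 in NahG. Its difference of -3.40 ± 0.48 (adjusted p = 0.00136, limma) was -2.51 without wild type array 1 and -4.30 without wild type array 2, and -5.44 and -1.95 with 1 and 64 added. In ein2 it was brighter than on either wild type array, at 840.4 and 1088.

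The other genes among the 15 lowest also carry no gene name beyond their locus in the annotation used here. They are AT5G52760 (-3.99), AT1G10340 (-3.92), AT3G60420 (-3.51), AT3G47480 (-3.35), AT5G24210 (-3.29), AT3G28510 (-3.26), AT1G13470 (-3.21), AT1G35710 (-3.08) and AT5G19240 (-3.05), each given as its log2 difference from wild type. All 15 also passed against ein2 and against coi1, comparisons that use the same NahG arrays.

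Few classical genes of the salicylic acid pathway have a named probe set here, and PR1, NPR1 and EDS1 were not analysed here. Of the 41 names listed as salicylic acid outputs, 2 were tested and both fell, AT5G03350 above and GRX480, where 5.02% of all genes tested fell. The list was chosen with earlier results of these data known. GRX480, a glutaredoxin that binds TGA transcription factors and is induced by salicylic acid, had 160.3 and 214 in wild type and 40.9 and 30.5 in NahG (-1.97 ± 0.25; adjusted p = 0.000689, limma). In coi1 it was also below both wild type arrays, at 48.3 and 50.8, and NahG minus coi1 was -0.35 (adjusted p = 0.442, limma), whereas ein2 had 198 and 333. Of the signalling genes, 2 of 34 names were tested and 1 fell. WRKY53, a transcription factor that promotes leaf senescence, had 193 and 166 in wild type and 26.4 and 32.1 in NahG (-2.11 ± 0.23; adjusted p = 0.000237, limma). Its NahG level was below that of green wild type leaves at stage 3.9, 114 and 65. SAG101, a partner of EDS1 in immune signalling, was at 90 and 75 in wild type and 42.7 and 49.5 in NahG and did not pass (-0.66 ± 0.22; adjusted p = 0.0935, limma).

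Of 2 genes described as chitinases, 1 fell and 1 rose, where 5.02% of all genes fell and 3.32% rose. With 2 genes in opposite directions, nothing follows for chitinases as a group. CHI, annotated as a chitinase that degrades fungal cell walls, had 1804 and 1773 in wild type and 267 and 239.6 in NahG (-2.75 ± 0.40; adjusted p = 0.0016, limma). The NahG arrays lay below those of all other groups for this gene. The other, ChiC, a class V chitinase, had 159 and 113 in wild type and 378 and 324 in NahG (1.29 ± 0.27), with an adjusted p of 0.105 without wild type array 2, 0.122 without NahG array 1 and 0.0531 without NahG array 2. The glutamate receptor genes, which encode cation channels of the plasma membrane, were chosen after their values were seen: 3 of 5 tested fell and 0 rose, where 5.02% of all genes tested fell. GLR2.7 had 314 and 254 in wild type and 46 and 41.8 in NahG (-2.32 ± 0.22), and its neighbour GLR2.8 had 109 and 85.9 in wild type and 27.9 and 19 in NahG (-1.52 ± 0.22). ATGLR1.2 had 159.5 and 176 in wild type and 77.4 and 66.3 in NahG (-1.07 ± 0.16; adjusted p = 0.00175, limma). In each of the 3 genes both NahG arrays lay below both wild type arrays.

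Some chaperones of protein folding also fell. Of 4 heat shock and chaperone genes tested 2 fell and 0 rose, where 5.02% of all genes fell, with a median log2 difference of -0.79 against 0.03 over all genes tested. CRT1b, a calreticulin of the endoplasmic reticulum, had 647 and 824 in wild type and 241 and 237 in NahG (-1.55 ± 0.22; adjusted p = 0.00136, limma). Hsp70-2, a cytosolic chaperone, had 229 and 351 in wild type and 148 and 101 in NahG (-1.11 ± 0.26; adjusted p = 0.0212, limma), and its adjusted p was 0.151 without wild type array 2, 0.148 without NahG array 2 and 0.0515 with no filter. ATERDJ3B, a co-chaperone of the endoplasmic reticulum picked after its values were seen, had 469 and 845 in wild type and 145 and 98.9 in NahG (-2.25 ± 0.26; adjusted p = 0.000359, limma). For this gene wild type array 2 stood above array 1, and ein2 (398 and 437) and coi1 (359 and 366) lay between wild type and NahG.

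Signalling and redox genes chosen after their values were seen completed this side. RING1, a RING-type ubiquitin ligase, had 1249 and 1004 in wild type and 326 and 278 in NahG (-1.84 ± 0.26; adjusted p = 0.00134, limma). SAL2, a relative of the SAL1 phosphatase, had 254 and 196 in wild type and 29.5 and 20 in NahG (-2.56 ± 0.26; adjusted p = 0.000163, limma). MSRB9, a methionine sulfoxide reductase that repairs oxidised protein, had 225 and 256 in wild type and 61.4 and 60 in NahG (-1.74 ± 0.28; adjusted p = 0.00295, limma). As for GRX480, the coi1 arrays were also below both wild type arrays for MSRB9, at 62.8 and 84.4. SGT1A, a co-chaperone of resistance proteins, differed by -0.85 ± 0.17 and SIZ1, a SUMO ligase, by -0.66 ± 0.17. Both passed with all arrays, but the adjusted p of SGT1A was 0.0622 without wild type array 2, 0.0544 without NahG array 1 and 0.0689 without NahG array 2, and that of SIZ1 0.0903 without wild type array 1, 0.173 without wild type array 2, 0.18 without NahG array 1, 0.112 without NahG array 2, 0.0516 with no filter and 0.0709 with only the compared groups fitted. CML41, a calmodulin-like protein, was the 1 that passed of 5 tested genes matched by name (20.0%, against 5.02% of all genes). Genes with no name beyond their locus in the annotation used were not matched to this list. CML41 had 975 and 508 in wild type and 178 and 288 in NahG (-1.57 ± 0.32). Its difference was -1.11 without wild type array 1 and -1.245 without NahG array 1, and it lost its call in both fits. CYP71B23, a cytochrome P450, was the 1 that fell (-1.54 ± 0.30) of 10 tested genes with CYP symbols, a share of 10.0% against 5.02% of all genes. These were matched by the letters of the symbol, and whether all, such as CYP71, are cytochromes P450 was not checked. Without NahG array 1 CYP71B23 lost its call, at -1.29.

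**Figure D2:**
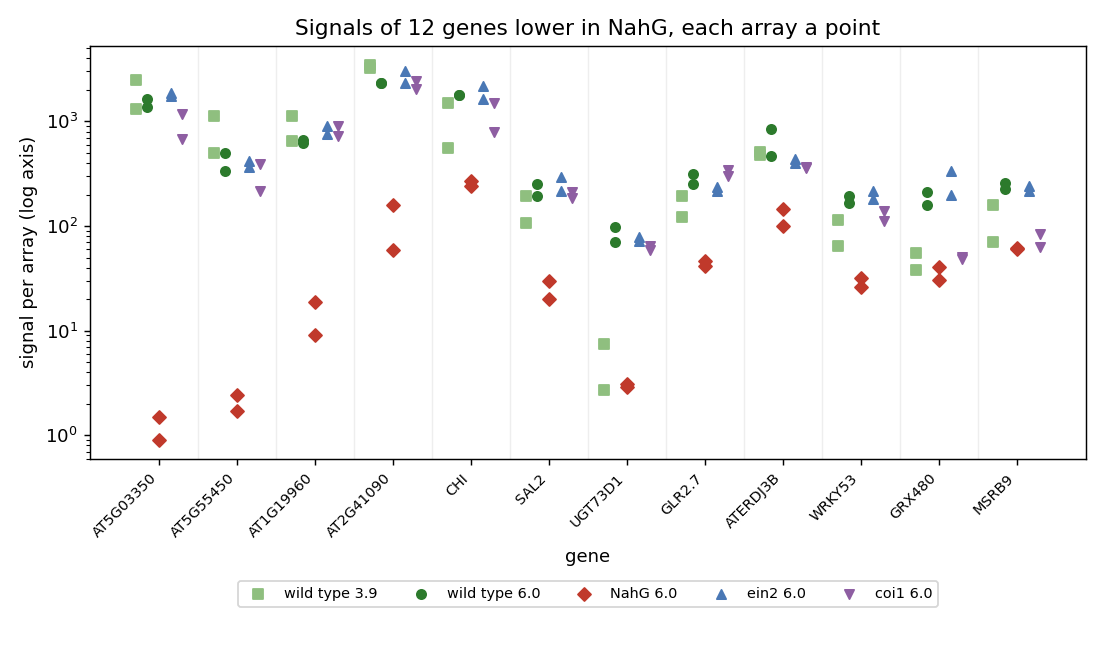
Signal on each of the 10 arrays (y axis, log) for 12 genes that were lower in NahG, with 2 points per group. For AT5G03350 and AT5G55450 the red NahG points lie under 3 while all other groups lie above 200, and for GRX480 and MSRB9 the coi1 points lie below the stage 6.0 wild type points.

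On the other side, most tested genes known as jasmonate outputs rose. Of the 27 names listed, 6 were tested, 5 rose and 0 fell, where 3.32% of all genes rose. Their median log2 difference was 2.73, against 0.03 over all genes tested. The list was chosen with earlier results of these data known. THI2.1 and BSMT1 met the signal filter only with the NahG arrays counted. They could thus be tested only because they were high in NahG. PDF1.2b may in part repeat PDF1.2, as given below. The count therefore cannot be set directly against the share of all genes. PDF1.2, the antifungal defensin used as the standard marker of the jasmonate and ethylene branch, had 239 and 156 in wild type and 4246 and 4021 in NahG (4.31 ± 0.67; adjusted p = 0.00226, limma). On the log2(signal + 16) scale this was the largest rise of any gene that passed, as it was with 64 added (4.02), but with 1 added AT2G19970 stood higher, at 7.24 against 4.41. In both mutants PDF1.2 was near the floor, at 20.7 and 5.64 (ein2) and 7.74 and 16.3 (coi1). The 2 wild type arrays of stage 3.9 disagreed, at 1277 and 167. PDF1.2b, a near-identical copy whose probe set can share targets with PDF1.2, differed by 4.05 ± 0.58 and is uncertain for that reason. PDF1.4 had 45.2 and 34.7 in wild type and 522 and 495 in NahG (3.23 ± 0.24; adjusted p = 1.86e-05, limma). Unlike PDF1.2, it was not near the floor in ein2, at 70.2 and 98.7.

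THI2.1, a thionin toxic to fungi and bacteria, had 10.7 and 27.2 in wild type and 159 and 127 in NahG (2.22 ± 0.31; adjusted p = 0.00114, limma). Both NahG arrays lay above every other array of the series. BSMT1, the enzyme that methylates salicylic and benzoic acid and so also a salicylic acid gene, had 72.4 and 16.6 in wild type and 257 and 193 in NahG (2.15 ± 0.44; adjusted p = 0.0111, limma). The wild type arrays differed, so that its log2 difference was 2.87 without wild type array 1 and 1.44 without wild type array 2, and the adjusted p was 0.0652 without wild type array 2, 0.118 without NahG array 1 and 0.0575 with 1 added. JRG21, an oxygenase that inactivates jasmonic acid by hydroxylation, had 522 and 148 in wild type and 1074 and 814 in NahG and did not pass (1.68 ± 0.48; adjusted p = 0.0564, limma). Without wild type array 1, the brighter of that pair, it passed at 2.54 with an adjusted p of 0.00449. In the pathway itself, 1 of 2 signalling genes tested fell: MYC4, a transcription factor of the jasmonate response, had 68.6 and 90.9 in wild type and 35.6 and 40.2 in NahG (-0.82 ± 0.20), with an adjusted p of 0.185 without wild type array 2, 0.17 without NahG array 1, 0.0849 without NahG array 2, 0.0743 with no filter and 0.0547 with only the compared groups fitted. The 1 of 2 jasmonate signalling genes that fell stands against 5.02% of all genes tested. OPCL1, of jasmonate synthesis, differed by 0.25 ± 0.22 (adjusted p = 0.551, limma).

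Both tested genes described as pathogenesis-related or osmotin rose, where 3.32% of all genes rose. OSM34, an osmotin of the thaumatin-like PR-5 family, had 209 and 250.3 in wild type and 1682 and 1507 in NahG (2.72 ± 0.30; adjusted p = 0.000267, limma), with an adjusted p of 0.0542 with 1 added to the signal. In both mutants it was below wild type, at 62.7 and 81.2 (ein2) and 35.5 and 65.8 (coi1). PR-1-LIKE, a relative of the salicylic acid marker PR1, had 24.5 and 28.8 in wild type and 505 and 341 in NahG (3.34 ± 0.24; adjusted p = 1.43e-05, limma). JAL23, a jacalin-related lectin that binds sugars, had 58.9 and 57.1 in wild type and 403 and 324 in NahG (2.35 ± 0.26; adjusted p = 0.000243, limma). It was 1 of 2 genes that rose among 3 described as lectins (66.7%, against 3.32% of all genes). The second, JAL34, passed at 0.76 ± 0.21, but its adjusted p was 0.222 without wild type array 1, 0.0621 without wild type array 2, 0.235 without NahG array 1, 0.138 without NahG array 2, 0.063 with 1 added, 0.112 with no filter and 0.0685 with only the compared groups fitted. Of 7 genes described as peroxidases 1 rose (14.3%, against 3.32% of all genes), AT5G64120 or peroxidase 71, with 98.1 and 107 in wild type and 293 and 335 in NahG (1.47 ± 0.24; adjusted p = 0.00353, limma).

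Genes known only by locus in the annotation used here make up most of the highest 15. AT2G19970 was at 1.11 and 0.805 in wild type and 269 and 319.7 in NahG (4.19 ± 0.28; adjusted p = 9.67e-06, limma). It was under 5 on all 8 other arrays, and its difference was 7.24 and 2.46 with 1 and 64 added. AT4G17470 had 12.9 and 3.52 in wild type and 570.4 and 312 in NahG (4.21 ± 0.32), and AT2G41800 had 11.6 and 2.11 in wild type and 559 and 281 in NahG (4.21 ± 0.44). With 1 and 64 added these were 5.74 and 2.76 for AT4G17470, and 5.99 and 2.71 for AT2G41800. AT3G27400 had 46.2 and 31.2 in wild type and 1060 and 697 in NahG (4.01 ± 0.31; adjusted p = 2.08e-05, limma). In these 3 genes NahG array 1 was the brighter NahG array, and both stood above all other arrays at stage 6.0. The rest are AT3G28220 (3.47), AT1G54020 (3.36), AT1G66100 (3.32), AT2G38870 (3.14), AT1G03820 (3.08), AT4G24780 (2.90) and AT1G28400 (2.88).

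Of 13 tested genes that loosen or remodel the cell wall, 7 rose (53.8%, against 3.32% of all genes) and 0 fell (against 5.02%). Their median log2 difference was 1.03, against 0.03 over all genes tested. Not all of the 7 also passed against the mutants. GH9B7, XTH32 and EXPB3 did not pass against ein2 (limma adjusted p = 0.255, 0.126 and 0.581), whereas GH9B8, GH9C2, XTH19 and EXPA8 did. GH9B7, EXPA8 and EXPB3 did not pass against coi1 (limma adjusted p = 0.101, 0.11 and 0.624), whereas GH9B8, GH9C2, XTH19 and XTH32 did. EXPB3 was brighter on every mutant array than on either stage 6.0 wild type array. The stem GH9 was missed when the list was first matched, which gave 9 tested members of which 4 rose and a median of 0.92. The endoglucanases of this stem, which cut cellulose-like glucans, hold the largest rise: GH9B8 had 2.31 and 18.7 in wild type and 159.9 and 105 in NahG (2.53 ± 0.38; adjusted p = 0.00186, limma), or 4.01 and 1.39 with 1 and 64 added. GH9C2 had 29.2 and 43.6 in wild type and 191 and 117 in NahG (1.68 ± 0.29), with an adjusted p of 0.0579 without NahG array 1. GH9B7 had 40.1 and 53.8 in wild type and 130.4 and 94.8 in NahG (1.03 ± 0.25), with an adjusted p of 0.137 without wild type array 1, 0.0551 without wild type array 2, 0.208 without NahG array 1, 0.0524 with 64 added and 0.0687 with no filter. All 3 were brighter on NahG array 1 than on array 2, and all 3 were low on both wild type arrays.

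XTH32, which cuts and rejoins xyloglucan chains, had 13.1 and 21.1 in wild type and 98.6 and 70.1 in NahG (1.60 ± 0.25; adjusted p = 0.00228, limma). It was brighter still in wild type at stage 3.9, at 304 and 187. XTH19 had 16 and 7.85 in wild type and 63.6 and 54 in NahG (1.43 ± 0.35), with an adjusted p of 0.132 without wild type array 2, 0.181 without NahG array 1, 0.0936 without NahG array 2 and 0.134 with 1 added. The expansin EXPA8, a wall-loosening protein, had 2.52 and 14.4 in wild type and 37 and 42.3 in NahG (1.23 ± 0.30) and far higher signals at stage 3.9, 765 and 559. Its adjusted p was 0.151 without wild type array 1, 0.124 without NahG array 1, 0.135 without NahG array 2, 0.0685 with 1 added, 0.0584 with 64 added, 0.077 with no filter and 0.07 with only the compared groups fitted, and that of the expansin EXPB3 (0.89 ± 0.22) was 0.129 without wild type array 1, 0.0525 without wild type array 2, 0.164 without NahG array 1, 0.0924 without NahG array 2, 0.0631 with no filter and 0.0652 with only the compared groups fitted. Of the members that did not pass, EXLA1 differed by 1.16 ± 0.34 and EXPA4 by 0.92 ± 0.29. Without wild type array 1 the difference of EXLA1 was 1.75, and with 64 added EXLA1 passed at 0.90 (adjusted p = 0.0448, limma).

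Outside the list, ATPMEPCRB or pectin methylesterase 41, which removes methyl groups from pectin, had 26.8 and 36.2 in wild type and 445 and 242 in NahG (2.87 ± 0.31; adjusted p = 0.000223, limma). Among 3 tested genes matched by name as pectin enzymes, it was the 1 that rose (33.3%, against 3.32% of all genes). Genes with no name beyond their locus in the annotation used were not matched to this list. TBL39, of the family that acetylates wall polysaccharides and chosen after its values were seen, had 12.6 and 23.1 in wild type and 293 and 119.8 in NahG (2.61 ± 0.33; adjusted p = 0.000683, limma). NahG array 1 was clearly the brighter, and the difference was 2.02 without it and 3.21 without NahG array 2. TBL36 (1.29 ± 0.28) and SKU5 (1.75 ± 0.41), chosen in the same way, passed with all arrays. The adjusted p of TBL36 was 0.0691 without wild type array 1 and 0.163 without NahG array 1, and that of SKU5 was 0.156 without wild type array 2, 0.199 without NahG array 1, 0.0543 without NahG array 2, 0.0621 with 1 added and 0.0752 with no filter.

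**Figure D3:**
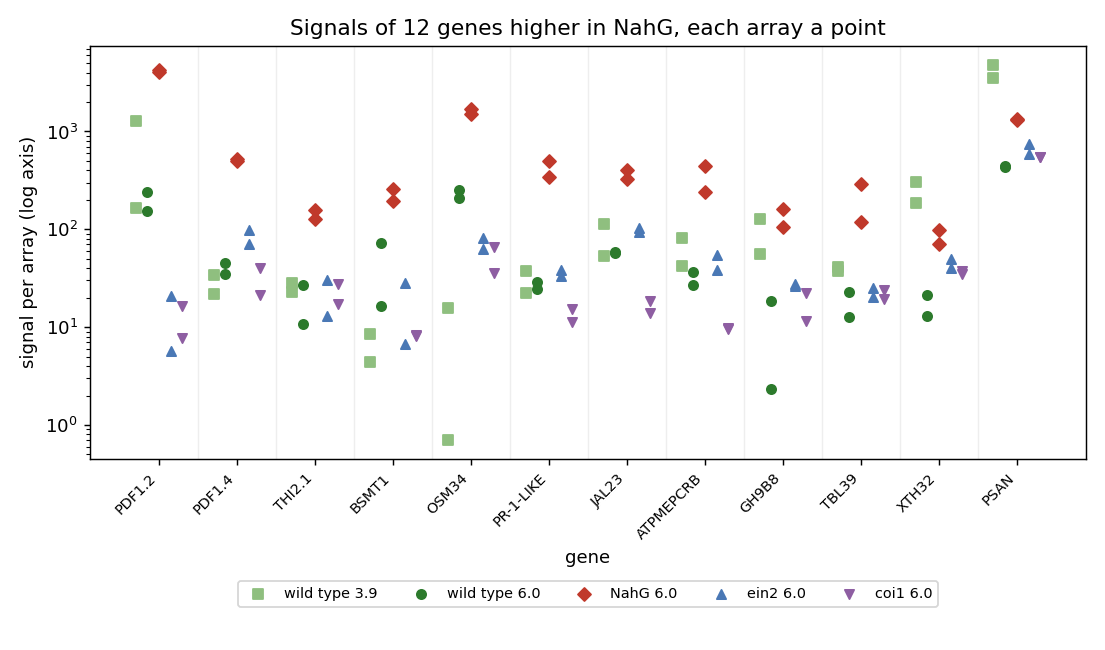
Signal on each of the 10 arrays (y axis, log) for 12 genes that were higher in NahG, with 2 points per group. For PDF1.2 and OSM34 the ein2 and coi1 points lie below the stage 6.0 wild type points, and for PSAN the stage 3.9 points lie above NahG.

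Transcripts of photosynthesis genes decline as leaves age. Of 9 such nuclear genes tested 3 rose in NahG (33.3%, against 3.32% of all genes) and 1 fell (11.1%, against 5.02%). Their median log2 difference was 0.48, against 0.03 over all genes. Of the 3 that rose, PSAN also passed against ein2 and coi1 (limma adjusted p = 0.0118 and 0.00214). LHCB4.2 (limma adjusted p = 0.306 and 0.0515) and PSAE-1 (0.209 and 0.0863) passed against neither mutant. PSAN, a photosystem I subunit, had 432 and 449 in wild type and 1357 and 1303 in NahG (1.56 ± 0.20; adjusted p = 0.000683, limma). Both NahG arrays stood between stage 6.0 wild type and stage 3.9 wild type, which had 4817 and 3481. LHCB4.2, an antenna protein of photosystem II, had 239 and 303 in wild type and 701 and 702 in NahG (1.33 ± 0.33), and the photosystem I subunit PSAE-1 had 1072 and 1210 in wild type and 2064 and 2071 in NahG (0.85 ± 0.21). Neither passed when 1 array was left out. The adjusted p of LHCB4.2 was 0.137 without wild type array 1, 0.0712 without wild type array 2, 0.158 without NahG array 1, 0.124 without NahG array 2 and 0.0775 with no filter, and that of PSAE-1 was 0.139 without wild type array 1, 0.0841 without wild type array 2, 0.161 without NahG array 1, 0.128 without NahG array 2 and 0.101 with no filter.

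LHCB4.3, an isoform of the same antenna protein, ran the other way, with 237 and 288 in wild type and 108 and 119.6 in NahG (-1.10 ± 0.27). Its adjusted p was 0.0645 without wild type array 1, 0.156 without wild type array 2, 0.178 without NahG array 1, 0.101 without NahG array 2, 0.0562 with 64 added and 0.0682 with no filter. RCA, the activase of Rubisco, was at 1815 and 2422 in wild type and 2302 and 2026 in NahG and did not pass (0.04 ± 0.22; adjusted p = 0.94, limma). The other members that did not pass had log2 differences from 0.27 (PSBY) to 0.70 (LHCB4.1). PORB, an enzyme of chlorophyll synthesis chosen after its values were seen, had 169 and 205 in wild type and 434 and 324 in NahG (0.95 ± 0.26), with an adjusted p of 0.172 without wild type array 1, 0.0924 without wild type array 2, 0.27 without NahG array 1, 0.0673 without NahG array 2, 0.0568 with 64 added and 0.0862 with no filter.

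Of 7 leaf senescence genes tested 2 fell, WRKY53 and NRT2.5 (28.6%, against 5.02% of all genes), and 0 rose. Their median log2 difference was -0.33, against 0.03 over all genes. NRT2.5, a nitrate transporter, had 99.1 and 169 in wild type and 41.3 and 41.8 in NahG (-1.34 ± 0.23; adjusted p = 0.00374, limma). It was 147 and 160.0 (ein2) and 166 and 155 (coi1), well above NahG. SAG29, the sugar transporter SWEET15 that marks ageing leaves, had 852 and 166 on the wild type arrays and 994 and 794 in NahG and did not pass (1.19 ± 0.52; adjusted p = 0.202, limma). The 2 wild type arrays disagreed, and without array 1, the brighter, the difference was 2.31. Which of the 2 is typical of wild type cannot be told from these arrays. Of 8 other sugar transporters 1 rose (12.5%, against 3.32%), SWEET17, a vacuolar fructose carrier, with 61.7 and 90.8 in wild type and 175 and 275 in NahG (1.37 ± 0.30) and an adjusted p of 0.104 without wild type array 1, 0.133 without NahG array 2 and 0.0516 with no filter.

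The next lists are short, and over all genes tested 3.32% rose and 5.02% fell, so a count of 0 says little about any of them. Of 10 autophagy genes, which carry out bulk recycling of cell contents, 0 passed, and their log2 differences ran from -0.45 (ATG3) to 0.39 (ATG8C). Likewise 0 of 3 ethylene genes passed. EIN3, the main transcription factor of the ethylene response, differed by -0.40 ± 0.18 (adjusted p = 0.219, limma), RTE1 by 0.55 ± 0.17 (adjusted p = 0.0714, limma) and ARL by 0.66 ± 0.28 (adjusted p = 0.195, limma). Of 5 glutathione transferases 0 passed, and GSTU27 came closest at -0.61 ± 0.18 (adjusted p = 0.058, limma). Of 5 cold and drought genes 0 passed, with COR15A at 0.95 ± 0.38 and COR15B at 0.73 ± 0.37. Of 3 vacuolar processing enzymes, proteases that act in senescence and cell death, 0 passed, and ALPHA-VPE stood at 0.999 ± 0.31 (adjusted p = 0.0742, limma). Some of these counts depend on the settings. ALPHA-VPE passed with 64 added, with only the compared groups fitted and without trend (limma adjusted p = 0.0232, 0.0406 and 0.0431). COR15A passed with only the compared groups fitted (0.0427), RTE1 with quantile normalization (0.0468) and GSTU27 with a filter at 100 (0.0479). At an unadjusted p under 0.05 in limma, 1431 of all 6411 genes tested would count. So would 1 of the autophagy genes, 2 of the ethylene genes and 1 of the glutathione transferases. The same holds for 1 of the cold and drought genes and 1 of the processing enzymes. In lists this short these counts are no sign of a change in the families. These values do not show that the genes were alike in the 2 genotypes, since log2 differences had a standard error of 0.21 at the median.

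**Figure D4:**
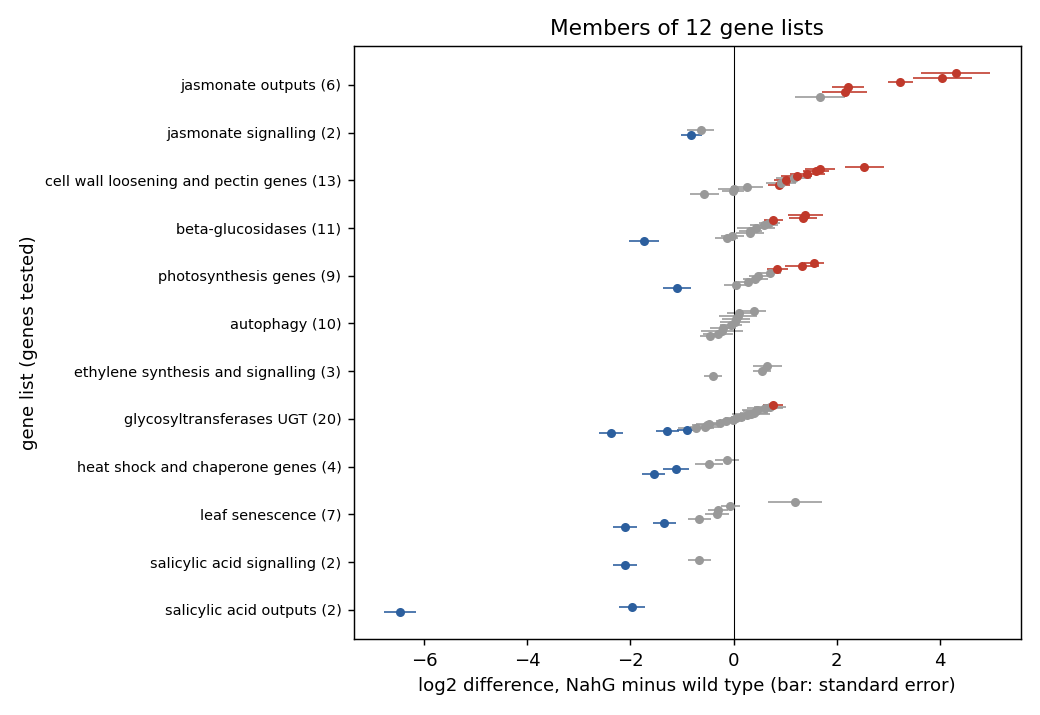
Log2 difference between NahG and wild type at stage 6.0 (x axis) for each tested member of 12 gene lists (y axis), with bars for the standard error. Members that rose are red, those that fell blue and the others grey. All 6 jasmonate outputs lie right of 0, 5 of them past the threshold, while the 10 autophagy genes lie around 0.

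Of 20 tested UDP-glycosyltransferases, which conjugate hormones and secondary metabolites, 3 fell (15%, against 5.02% of all genes). The 1 that rose is a share near the 3.32% of all genes, and the median log2 difference was 0.02. UGT73D1 had 97.1 and 70.1 in wild type and 2.92 and 3.12 in NahG (-2.38 ± 0.23; adjusted p = 0.0001, limma). The NahG arrays were at the floor, as were the green leaves of stage 3.9 at 7.46 and 2.72, and the difference was -4.38 and -1.13 with 1 and 64 added. UGT78D2, which glucosylates flavonols and anthocyanins, had 582 and 670.4 in wild type and 257 and 237 in NahG (-1.28 ± 0.22; adjusted p = 0.00401, limma). UGT74B1, of glucosinolate synthesis, differed by -0.90 ± 0.19, with an adjusted p of 0.0907 without wild type array 2, 0.0507 without NahG array 1 and 0.0776 without NahG array 2. UGT85A2 rose by 0.76 ± 0.19, with an adjusted p of 0.113 without wild type array 1, 0.113 without wild type array 2, 0.0799 without NahG array 1, 0.189 without NahG array 2, 0.0747 with no filter and 0.0566 with only the compared groups fitted. CHIL, which aids flavonoid synthesis and was chosen after its values were seen, had 109.7 and 140.5 in wild type and 60.5 and 39.5 in NahG (-1.11 ± 0.24), with an adjusted p of 0.113 without wild type array 2, 0.126 without NahG array 2 and 0.051 with no filter. ALDH2C4, which makes ferulic and sinapic acid and was chosen in the same way, differed by -1.17 ± 0.20, with an adjusted p of 0.0561 without NahG array 1.

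Of 11 beta-glucosidases, which release compounds stored as glucosides, 3 rose (27.3%, against 3.32% of all genes). The 1 that fell is 9.09% of the list, against 5.02% of all genes. BGLU46 had 46.4 and 27.8 in wild type and 111 and 123 in NahG (1.35 ± 0.27), with an adjusted p of 0.0823 without wild type array 2, 0.0815 without NahG array 1, 0.0872 without NahG array 2 and 0.122 with 1 added. BGLU15 (1.39 ± 0.34) had an adjusted p of 0.152 without wild type array 1, 0.216 without NahG array 1, 0.062 without NahG array 2 and 0.0757 with no filter, and BGLU16 (0.77 ± 0.18) one of 0.165 without wild type array 2, 0.139 without NahG array 1, 0.0882 without NahG array 2 and 0.0545 with only the compared groups fitted. BGLU31 fell, with 50.6 and 58.3 in wild type and 8.66 and 1.91 in NahG (-1.74 ± 0.29; adjusted p = 0.00374, limma), and it was also low in coi1, at 10.2 and 16.5. Its difference was -3.38 and -0.77 with 1 and 64 added. PYK10, a beta-glucosidase of endoplasmic reticulum bodies that was chosen after its values were seen, had 12.5 and 29.4 in wild type and 118 and 95.8 in NahG (1.77 ± 0.25; adjusted p = 0.00146, limma). Both NahG arrays lay above every other array for PYK10.

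Genes that changed the same way were in part neighbours on the chromosome. In 1613 pairs of adjacent genes with both members tested, both fell in 12 pairs, both rose in 5 and 3 pairs had opposite calls. A neighbour of a gene that fell had also fallen in 14.5% of cases, against 5.11% of all genes in the pairs, and for rises the shares were 8.33% and 3.72%. The run AT5G52740, AT5G52750 and AT5G52760 fell by 1.28, 1.87 and 3.99 on the log2 scale. GLR2.8 and GLR2.7 are another such pair, as are AT5G22530 and AT5G22540, which fell by 2.03 and 1.15 on the log2 scale. PDC2, a pyruvate decarboxylase, rose by 1.01 ± 0.21 beside AT5G54970, with an adjusted p of 0.0886 without wild type array 1, 0.0735 without NahG array 1 and 0.0678 without NahG array 2. Adjacent copies can share probe targets, and this was not tested.

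To place NahG among the other genotypes of the same stage, it was also set against ein2, which is insensitive to ethylene, and coi1, which is insensitive to jasmonate. Against ein2, 407 probe sets were higher in NahG (3.34%) and 510 lower (4.19%), and against coi1, 613 were higher (5.03%) and 730 lower (5.99%). Against the mean of wild type, ein2 and coi1, 632 were higher (5.19%) and 797 lower (6.54%). These comparisons and the one with wild type share the NahG arrays, so their calls are not independent. Across all tested probe sets the NahG arrays correlated at 0.865 to 0.901 with the stage 6.0 wild type arrays, whereas those of ein2 and coi1 correlated at 0.927 to 0.957 with them. The correlations share the arrays and carry no test. Without NahG array 1 the counts fell to 419 against ein2 and 645 against coi1, and without NahG array 2 the count against coi1 fell to 719. Without 1 ein2 array the count against ein2 was 531 (array 1) or 418 (array 2), and without 1 coi1 array that against coi1 was 592 (array 1) or 619 (array 2). Against the mean of the 3 groups it was 587 without NahG array 1 and 794 without NahG array 2.

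Among the rises over ein2 and over coi1, that of PDF1.2 was the largest of any gene that passed, with 1, 16 or 64 added. It was higher in NahG by 7.20 than in ein2 (adjusted p = 7.2e-05, limma) and by 7.23 than in coi1 (adjusted p = 5.69e-05, limma) on the log2 scale. AT4G16260, at 255 and 287 in wild type and 1554 and 1398 in NahG, was 27.1 and 55.4 in ein2, while coi1 had 65.4 and 49.4. JRG21 was 247 and 405 in ein2 but 6.13 and 6.85 in coi1, and NahG exceeded coi1 by 5.40 (adjusted p = 4.75e-05, limma). On the falling side, AT1G19960 had log2 differences of -4.84 (NahG minus ein2), -4.81 (NahG minus coi1) and -4.47 (NahG minus wild type).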

How the data were processed

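Leaf RNA of 10 samples was hybridised to Affymetrix arrays, each with 22810 probe sets. According to the deposited table and per the submitters' processing notes, its intensity signals are linear MAS5 output of the authors (the notes name no version), and it has no detection calls. After 64 control probe sets were left out, each array was scaled to a 2% trimmed mean of 100. Tests were run on the 12184 probe sets that reached a signal of 50 on 2 or more arrays. A probe set that did so on only 2 arrays could be tested solely because of the group in which it was high. Group means of all 10 arrays in 5 groups were modelled with limma 3.58.1 under R 4.3.3 (log2(signal + 16), lmFit, eBayes with trend), with 5 residual and 5.74 prior degrees of freedom, and p-values were adjusted by Benjamini-Hochberg over all probe sets of a comparison. A difference is on the log2(signal + 16) scale, which understates changes of low signals, and 2 arrays per group limit the precision. Values after ± are standard errors. Other software was matplotlib 3.10.9, numpy 2.4.6, pandas 2.3.3 and python 3.11.15.

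The platform's probe table pairs 13513 probe sets with 1 gene, 503 with several genes and 8730 with no gene. Symbols were updated through RefSeq gene IDs, and the probe set of highest mean signal stands for a gene. Named genes are the 15 highest and 15 lowest that passed without overlap, up to 3 passing members per list and direction (2 of smallest p where none passed), the extremes of the other comparisons and 9 fixed genes. Further genes are marked as chosen after their values were seen. The members and gene lists were chosen with earlier results of these data known. List membership was also corrected after values were seen. GH9 symbols were added to the cell wall list, whose earlier counts stand beside the new ones. The chitinase CHI was taken out of the flavonoid list, which then had 1 of 4 tested members lower instead of 2 of 5. The peptide deformylases PDF1A and PDF1B were taken out of the defensins, which had 3 of 7 higher before and 3 of 5 after. Methionine enzymes matched by the letters of thionin were removed, which left 3 of 3 described as defensin or thionin higher, against 3 of 16 higher and 1 lower before. The procedure was tested on simulated data.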

Additional observations from a re-analysis of the deposited data

How the results depend on the processing

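Of 91 named genes that passed, 58 kept the call under all 12 alternatives, 33 lost it under at least 1, 11 of them only when an array was left out, and 0 reversed. GAMMA-VPE, which never passed, changed sign around 0. For NahG minus wild type the 1110 calls became 1017 with 1 added to the signal, 1104 with 64 added, 803 without a filter and 956 with a filter at 100. They became 1169 with quantile normalization, 1111 on the deposited values, 945 with the compared groups only and 1080 without trend. Leaving out 1 array gave 455 to 748 calls against wild type, 418 to 642 against ein2, 592 to 719 against coi1 and 587 to 1454 against the mean of 3 groups. With only the compared groups in the fit, NahG minus coi1 had 2140 calls instead of 1343. The cause was not tested. Array numbers 1 and 2 of NahG, ein2 and coi1 were fitted as a replicate block over these 6 arrays, which gave 1446 calls against ein2 instead of 917 and 2246 against coi1. The same 6 arrays without the block, a fit chosen after seeing the data, gave 1271 and 1933. The deviations of same-numbered arrays correlated at 0.34 (NahG and ein2), -0.13 (NahG and coi1) and 0.22 (ein2 and coi1). These mixed values do not settle whether same-numbered arrays share more than a number. No paired analysis was possible against wild type because the wild type labels carry no such number. The planned search for promoter motifs was not run. With 2 arrays a group, 1 array can decide a call, and low signals near the floor limit the size of the largest falls.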
